A study of Mus musculus with 30 samples.

Results

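The genes described here moved when mouse embryonic fibroblasts received siRNA against lincRNA-p21, in each of 2 separate experiments, while siRNA against p53 moved them little in either. A gene was taken when its mean log2 signal with lincRNA-p21 siRNA (siLincp21) differed from the control siRNA by at least 0.5, in the same direction, in both experiments. Its mean with p53 siRNA (siP53) also had to lie within 0.3 of the control in both. Of 12674 genes tested, 72 met this rule (0.568%), of which 35 were higher and 37 were lower with siLincp21. The genes were thus chosen by their siLincp21 and siP53 differences, which are given below as a description and carry no test. The probe set of each gene and the level limit were set on the mean over all 30 arrays. Measurements that the rule's differences did not use were the arrays with siRNA against hnRNP-K (siHnrnpk) and a time course of p53 restoration. There a gene was called, and is said to rise or fall, at a limma p below 0.05 after Benjamini-Hochberg adjustment over all 12674 genes, and SE marks the standard error of that fit. All signals are log2 values, on which a difference of 1 is a 2-fold difference.

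All cells were p53 LSL/LSL fibroblasts of strain C57BL/6 x 129SvJ, isolated from E13.5 embryos, in which p53 stays off until Cre recombinase removes a stop cassette. In both siRNA experiments every group, the control included, had adenovirus with Cre (adenoCRE) for 24 h, siRNA for 24 h and 100 nM doxorubicin, a DNA-damaging drug, for 13 h. The lincP21KD experiment held 2 arrays with a non-targeting siRNA pool, 3 with siLincp21 and 3 with siP53. The hnRNPKKD experiment held 3 arrays each with the non-targeting pool, siLincp21, siP53 and siHnrnpk. The time course set adenoCRE against adenovirus with GFP (adenoGFP), each given for 24 h, and sampled after 0, 1, 3, 6 and 9 h in doxorubicin at 500 nM, with a single array per virus and hour. It held no cells with Cre but without p53, so p53 restoration and other effects of the 2 viruses cannot be told apart there. Nothing in the labels says whether arrays of a group came from separate cultures, so the p-values measure only the spread between these arrays, which may be technical.

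The transcription factor p53 is switched on by DNA damage and activates genes of cell cycle arrest, repair and cell death. LincRNA-p21 is a long noncoding RNA that p53 activates from a gene beside Cdkn1a, the gene of the cell cycle inhibitor p21. It is known to bind hnRNP-K, an RNA- and DNA-binding protein of the nucleus, and to take part in lowering the expression of other genes.

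The targets that could be read were low where the labels name them. Hnrnpk read 8.38, 8.34 and 9.94 (log2) with siHnrnpk and 12.68, 12.03 and 12.47 with control siRNA. The difference was -3.51 ± 0.35 (SE, limma, adjusted p = 2.12e-05), and the third siHnrnpk array kept the highest level. Cdkn1a, a direct p53 target, was -2.07 and -2.64 from the control with siP53 in the lincP21KD and hnRNPKKD experiments, and 0.01 and 0.32 with siLincp21. It rose by 3.85 ± 0.15 with adenoCRE (limma, adjusted p = 3.5e-05). The transcripts of lincRNA-p21 and p53 themselves are not analysed here. All 13 fibroblast markers were measured, and their mean log2 level lay between 10.996 and 11.84 on every siRNA array. Within each experiment this mean was higher with siLincp21 (11.7 to 11.8 in lincP21KD, 11.4 in hnRNPKKD) than with control siRNA (11.4 to 11.5 and 11.1). With siP53 it read 11.7 to 11.8 and 11.5 to 11.6, and with siHnrnpk 10.996 to 11.046. The 6 measured of 9 epithelial markers had a lower mean with siLincp21 (6.15 to 6.30 and 5.82 to 5.92) than with control siRNA (6.43 to 6.46 and 6.20 to 6.27), and with siP53 it was 6.37 to 6.48 and 5.45 to 5.64. The mean of 7 measured of 11 neural markers was higher with siLincp21 (6.41 to 6.53 and 6.47 to 6.53) than with control siRNA (6.15 to 6.22 and 6.25 to 6.31), and was 6.32 to 6.49 and 6.23 to 6.37 with siP53. With siHnrnpk these means were 5.80 to 6.10 and 6.66 to 6.78. Gene by gene, the median siLincp21 difference was -0.127 and 0.089 for the epithelial markers and -0.014 and 0.015 for the neural ones. The neural means, and the epithelial mean in hnRNPKKD, thus moved with only some of their markers. Lists of macrophage, endothelial, skeletal muscle, adipocyte and chondrocyte markers were measured too and are not described here. The part of such markers in the results was not tested.

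In the plot of differences by gene, the siLincp21 points lie outside the limit of 0.5 and the siP53 points inside that of 0.3, as the rule requires. The 35 higher genes had a median siLincp21 difference of 0.57 in the lincP21KD experiment and 0.83 in the hnRNPKKD experiment. The 37 lower genes had medians of -0.64 and -0.95. The difference was larger in size in the hnRNPKKD experiment for 31 of the 35 and for 31 of the 37, and the SD of this difference over all tested genes was 0.24 and 0.43 in the 2 experiments. Snn was the one gene with a difference of at least 1 in both. Every siLincp21 array lay beyond every control array in both experiments for all 35 and all 37 genes. Over all tested genes, 13.9% had such a gap upwards and 10.1% downwards, and since the rule used this contrast nothing is read from the count. The siP53 medians were 0.04 and 0.13 for the higher genes and -0.08 and -0.04 for the lower ones.

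**Figure D1:**
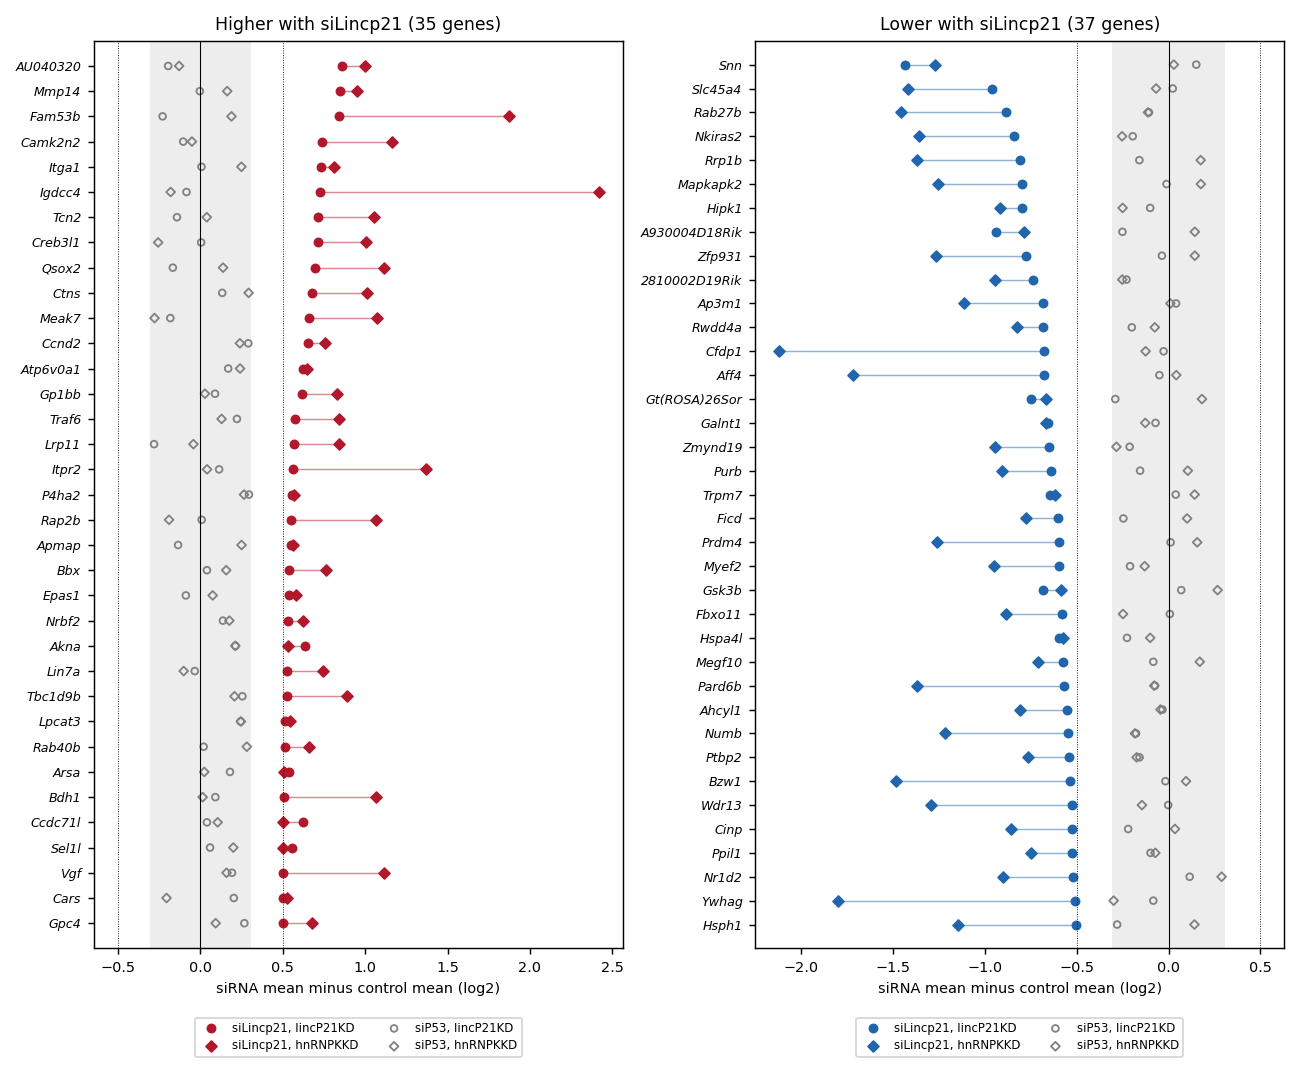
Mean differences from control siRNA (log2) for the 35 genes higher (left) and the 37 genes lower (right) with siLincp21, with filled points for siLincp21, open points for siP53, circles for the lincP21KD experiment and diamonds for hnRNPKKD. Dotted lines mark 0.5 in either direction and the grey band the siP53 limit of 0.3, and the median siLincp21 differences run from 0.57 to 0.83 on the left and from -0.64 to -0.95 on the right.

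The rule sits inside a larger response. Before siP53 was looked at, 291 genes (2.3% of those tested) were at least 0.5 higher with siLincp21 in both experiments and 149 (1.18%) at least 0.5 lower. The 35 and 37 genes are 12% and 24.8% of those, while siP53 moved 90 of the 291 and 23 of the 149 by at least 0.5 in the same direction in both experiments. The siP53 and siLincp21 differences share their control arrays, and the share of all tested genes that siP53 moved so far is not given here. Nothing is therefore read from the counts of 90 and 23. With the roles exchanged, 162 genes moved with siP53 but little with siLincp21, 41 of them higher and 121 lower. The limits divide neighbours finely. Cars (0.50 and 0.53) and Gpc4 (0.50 and 0.68) are just inside, and Coro7 (0.50 and 0.78) and Wdr81 (0.50 and 0.52) just outside. Among lower genes Hsph1 (-0.50 and -1.15) and Ywhag (-0.51 and -1.80) are just inside, and Wdr44 (-0.60 and -0.50) and Paf1 (-0.50 and -0.73) just outside. Ywhag also sits at the other limit, with -0.30 for siP53 in the hnRNPKKD experiment.

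The promoters of 6 genes are shown because these genes carry the patterns below. Mmp14 and Fam53b had siLincp21 differences among the 3 highest of the higher genes by the smaller of the 2 experiments, and Rap2b had the largest restoration response. Snn was the lowest by the smaller of its 2 siLincp21 differences, Rwdd4a fell most with siHnrnpk, and Ppil1 is the one member from a list of genes near Cdkn1a. Each sequence is the 250 bases before the first listed RefSeq transcription start in GRCm38.p6, read 5′ to 3′ on the gene's strand. Further starts of a gene were not searched, and Fam53b has 3 listed. Capitals mark the CCAAT box (CCAAT, or ATTGG on the other strand) and the GC box (GGGCGG or CCGCCC), and in the Mmp14 promoter the last CCAAT box and the GC boxes overlap. The windows are chr7:132813849-132814098 (minus strand) for Fam53b, chr14:54431348-54431597 (plus strand) for Mmp14, chr3:61364257-61364506 (plus strand) for Rap2b, chr16:11066048-11066297 (plus strand) for Snn, chr8:47533395-47533644 (plus strand) for Rwdd4a and chr17:29263972-29264221 (minus strand) for Ppil1.
Mmp14: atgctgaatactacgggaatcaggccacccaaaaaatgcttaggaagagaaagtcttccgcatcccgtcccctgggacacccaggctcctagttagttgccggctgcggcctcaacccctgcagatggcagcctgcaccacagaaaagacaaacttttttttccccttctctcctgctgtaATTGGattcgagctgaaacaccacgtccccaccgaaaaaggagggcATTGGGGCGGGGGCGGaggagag
Fam53b: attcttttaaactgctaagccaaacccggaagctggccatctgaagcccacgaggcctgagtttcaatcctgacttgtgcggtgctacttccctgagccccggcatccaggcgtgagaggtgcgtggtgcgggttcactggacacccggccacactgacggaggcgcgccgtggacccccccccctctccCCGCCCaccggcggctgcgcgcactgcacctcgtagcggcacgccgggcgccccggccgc
Rap2b: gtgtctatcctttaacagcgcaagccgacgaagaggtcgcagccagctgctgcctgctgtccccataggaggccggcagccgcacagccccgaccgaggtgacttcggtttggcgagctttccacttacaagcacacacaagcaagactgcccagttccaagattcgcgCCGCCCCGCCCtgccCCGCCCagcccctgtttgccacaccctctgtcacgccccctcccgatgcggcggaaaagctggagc
Snn: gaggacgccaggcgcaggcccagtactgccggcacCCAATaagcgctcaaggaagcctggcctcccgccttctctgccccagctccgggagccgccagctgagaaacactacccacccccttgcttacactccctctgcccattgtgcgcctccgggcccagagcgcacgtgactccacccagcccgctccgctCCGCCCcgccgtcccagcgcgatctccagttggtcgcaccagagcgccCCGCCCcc
Rwdd4a: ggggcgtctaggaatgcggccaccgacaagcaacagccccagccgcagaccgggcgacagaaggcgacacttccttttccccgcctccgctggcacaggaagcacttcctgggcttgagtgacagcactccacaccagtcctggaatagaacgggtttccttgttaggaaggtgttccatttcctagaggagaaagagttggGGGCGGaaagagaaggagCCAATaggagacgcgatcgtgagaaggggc
Ppil1: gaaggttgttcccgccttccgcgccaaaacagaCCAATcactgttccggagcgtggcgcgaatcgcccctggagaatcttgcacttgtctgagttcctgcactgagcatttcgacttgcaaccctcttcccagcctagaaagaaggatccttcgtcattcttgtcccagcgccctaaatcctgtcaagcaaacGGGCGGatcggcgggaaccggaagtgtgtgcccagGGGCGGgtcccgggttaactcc

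Of the 72 genes, 27 higher and 31 lower ones had such a window, as did 10232 of the tested genes. The CCAAT box was found on either strand in 18 of the 31 lower genes (58.1%), in 9 of the 27 higher genes (33.3%) and in 36.4% of all windows. Mmp14, Snn, Rwdd4a and Ppil1 hold it in the sequences above, and Fam53b and Rap2b do not. The GC box was found in 21 of 27 higher genes (77.8%), 21 of 31 lower genes (67.7%) and 58.9% of all. GC content had a median of 64.4% in the higher genes, 62% in the lower genes and 60% overall. A p53 half-site, searched on both strands by its usual consensus, was found in 0 of 27 higher genes, in 5 of 31 lower genes (Mapkapk2, Trpm7, Ptbp2, Bzw1 and Hsph1, 16.1%) and in 6.09% of all. A further search for TATAAA matched 0 of 27 higher genes, 3 of 31 lower genes (9.68%) and 6.79% of all. Other short motifs were searched too, and some of their shares also differed from those of all windows. CACGTG was found in 16.1% of lower genes, 11.1% of higher genes and 8.36% of all. TGACGT was found in 19.4%, 3.7% and 10%, and TGANTCA, with N any base, in 0%, 11.1% and 4.47%. These are matches of letters in a short window, not sites of binding, and the shares were not tested.

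Among the higher genes, 9 were grouped under the matrix, adhesion and the cell surface, and the group includes a regulator of collagen genes and an enzyme that modifies collagen. Mmp14 encodes a membrane-bound metalloproteinase that cleaves collagen. Its signal was 12.97, 12.69 and 13.0 with siLincp21 against 12.03 and 12.05 in the lincP21KD controls, and 12.82, 12.84 and 12.77 against 11.78, 11.93 and 11.88 in hnRNPKKD. The siP53 arrays read 11.94 to 12.14 and 11.85 to 12.25, so they overlap the controls. With siHnrnpk Mmp14 read 12.1, 12.1 and 12.16, above each control, but the difference of 0.26 ± 0.10 did not pass (limma, adjusted p = 0.083). Igdcc4, a surface protein of the immunoglobulin superfamily, had the highest siLincp21 difference of all, 2.42 in the hnRNPKKD experiment, against 0.72 in lincP21KD. Its arrays read 9.66, 9.37 and 9.95 with siLincp21, 8.29, 8.14 and 8.34 with siHnrnpk, and 7.45, 6.97 and 7.3 with control siRNA. Also in this group were Itga1, an integrin subunit that binds collagen (0.73 and 0.81), and Creb3l1, a membrane-bound transcription factor that drives collagen genes (0.71 and 1.01). Others were AU040320, a transmembrane protein (0.86 and 1.00), Gp1bb, known as part of the platelet receptor for von Willebrand factor (0.62 and 0.83), Lrp11, P4ha2, an enzyme that hydroxylates collagen, and the glypican Gpc4. Of the 9, siHnrnpk raised Igdcc4 (1.02 ± 0.15, limma, adjusted p = 0.00028), Lrp11 (0.78), Creb3l1 (0.61), AU040320 (0.58) and Gpc4 (0.37). The Gpc4 call was lost without siHnrnpk replicate 1 or 2 or control replicate 2 or 3 (adjusted p 0.0532 to 0.0674). On the mean of its 2 probe sets the Gpc4 difference was 0.04 (limma, adjusted p = 0.853), and the other probe set alone gave -0.29. The fibroblast marker mean was higher with siLincp21 and with siP53 than with control siRNA, and its part in these differences was not tested. The rule itself kept Mmp14 near its controls with siP53.

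Another 6 higher genes serve the lysosome, autophagy or vitamin transport. Tcn2, which encodes the carrier of cobalamin in blood, read 10.21, 10.13 and 10.35 with siLincp21 against 9.42 and 9.62 in lincP21KD, and 11.85, 11.96 and 12.15 against 11.04, 10.94 and 10.83 in hnRNPKKD. Its siHnrnpk arrays read 11.82, 11.87 and 11.72. Each of these arrays is above all of its controls. The siHnrnpk difference was 0.87 ± 0.11 (limma, adjusted p = 0.00012), and adenoCRE raised the gene by 0.92 ± 0.11 (adjusted p = 0.00193), with all 5 pairs higher. Meak7, a lysosomal protein tied to mTOR signalling, read 8.65, 8.72 and 8.56 with siHnrnpk, 8.77, 8.69 and 8.67 with siLincp21, and 7.59, 7.65 and 7.67 with control siRNA. The siHnrnpk difference of Meak7 was 1.01 ± 0.10 (limma, adjusted p = 2.62e-05), and its arrays overlap those with siLincp21. Atp6v0a1, a subunit of the proton pump that acidifies lysosomes, was 0.62 and 0.65 higher with siLincp21 and rose by 0.51 ± 0.08 with adenoCRE (limma, adjusted p = 0.00449). With siHnrnpk it read 8.1, 8.05 and 8.04 against 8.09, 8.28 and 8.25, a difference of -0.15 that did not pass. Ctns, the lysosomal cystine exporter, was 0.68 and 1.01 higher with siLincp21, and neither of the other comparisons passed for it. Arsa, a lysosomal sulfatase, and Nrbf2, a subunit of an autophagy lipid kinase complex, rose with siHnrnpk by 0.58 and 0.27. The Nrbf2 call was lost without siHnrnpk replicate 1 or 2 or control replicate 2 or 3 (adjusted p 0.101 to 0.15).

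Signalling proteins and small GTPases account for 7 of the higher genes. Rap2b, a Ras-like GTPase, read 10.68, 10.8 and 10.86 with siLincp21 against 10.15 and 10.31 in lincP21KD, and 10.72, 10.74 and 10.76 against 9.77, 9.62 and 9.63 in hnRNPKKD. Arrays with siHnrnpk read 11.14, 11.14 and 10.92, above every other siRNA array of that experiment. The rise was 1.39 ± 0.11 (limma, adjusted p = 4.78e-06). Camk2n2, an inhibitor of calcium/calmodulin-dependent kinase II, moved the other way with siHnrnpk. It read 7.88, 7.71 and 8.13 with siLincp21, 6.89, 6.67 and 6.67 with control siRNA and 5.85, 6.13 and 6.18 with siHnrnpk. The difference was -0.69 ± 0.15 (limma, adjusted p = 0.00351). Against the siP53 arrays it was -0.64 (limma, adjusted p = 0.00295). The siLincp21 comparison does not use those arrays, but the rule held their mean near the control. Itpr2, a calcium channel of the endoplasmic reticulum, was 0.56 and 1.37 higher with siLincp21. Lin7a, a cell polarity scaffold named after its values were seen, was 0.53 and 0.74 higher with siLincp21 and fell by 0.47 with siHnrnpk (limma, adjusted p = 0.0493), a call lost without siHnrnpk replicate 1 or 2 or any 1 control array (adjusted p 0.0662 to 0.195). Traf6, Tbc1d9b and Rab40b had siLincp21 differences of 0.52 to 0.89, and none of them passed with siHnrnpk. For Tbc1d9b the mean of all its probe sets fell with siHnrnpk (-0.22, adjusted p = 0.0454, limma), while the probe set used here differed by 0.06.

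Genes of the cell cycle or of transcription made up 5 of the higher ones. Fam53b, a nuclear protein linked to β-catenin, read 5.92, 5.78 and 6.17 with siLincp21 against 5.01 and 5.22 in lincP21KD, and 7.11, 6.75 and 7.18 against 5.55, 5.05 and 4.81 in hnRNPKKD. With siHnrnpk it read 7.24, 7.32 and 7.12, a rise of 2.09 ± 0.18 (limma, adjusted p = 5.54e-06), the largest of the 72 genes. Another probe set of Fam53b differed by only -0.11 and -0.02 with siLincp21 and by 0.08 with siHnrnpk. With siP53 that probe set differed by -0.65 and -0.63. Ccnd2 encodes cyclin D2, which drives entry into the cell cycle. It read 13.68, 13.6 and 13.6 with siLincp21 against 12.85 and 13.1, and 13.49, 13.54 and 13.37 against 12.58, 12.82 and 12.74. Its siP53 differences, 0.29 and 0.24, came close to the limit, and among its 6 other probe sets they lay between 0.24 and 0.67 in size. With siHnrnpk Ccnd2 read 12.45, 12.63 and 12.7, within or below the control range. Epas1, a hypoxia-inducible factor, Bbx and Akna had siLincp21 differences of 0.53 to 0.77 and did not pass with siHnrnpk. On the mean of its probe sets Epas1 did pass (0.25, limma, adjusted p = 0.0478). The siP53 arrays of Bbx read 8.21, 9.03 and 7.95 in the hnRNPKKD experiment. Other probe sets of Bbx differed there by 0.37 to 0.80 with siP53, and by 0.01 to 0.13 in lincP21KD.

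Secretion, the endoplasmic reticulum and metabolism account for 7 higher genes, and Ccdc71l, of unclear role, is the last. Qsox2, an oxidase that forms disulfide bonds in secreted proteins, read 8.12, 7.78 and 7.99 with siLincp21 against 7.16 and 7.37, and 8.11, 7.99 and 8.39 against 7.1, 7.04 and 7.0. The siHnrnpk arrays gave 7.1, 6.96 and 7.12, so those arrays overlap the controls. Vgf, a secreted peptide precursor, Lpcat3, a phospholipid-remodelling enzyme, and Apmap rose with siHnrnpk by 0.74, 0.58 and 0.52. Ccdc71l rose by 0.88 ± 0.12 (limma, adjusted p = 0.000195). Sel1l, a scaffold for degrading misfolded proteins, was 0.56 and 0.50 higher with siLincp21. Its 4 other probe sets differed by 0.07 to 0.18 in the hnRNPKKD experiment. Bdh1, a ketone body enzyme, and Cars, which loads cysteine onto its tRNA, had differences of 0.51 and 1.07, and of 0.50 and 0.53. On the mean of its probe sets Cars rose with siHnrnpk (0.47, limma, adjusted p = 0.0209).

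**Figure D2:**
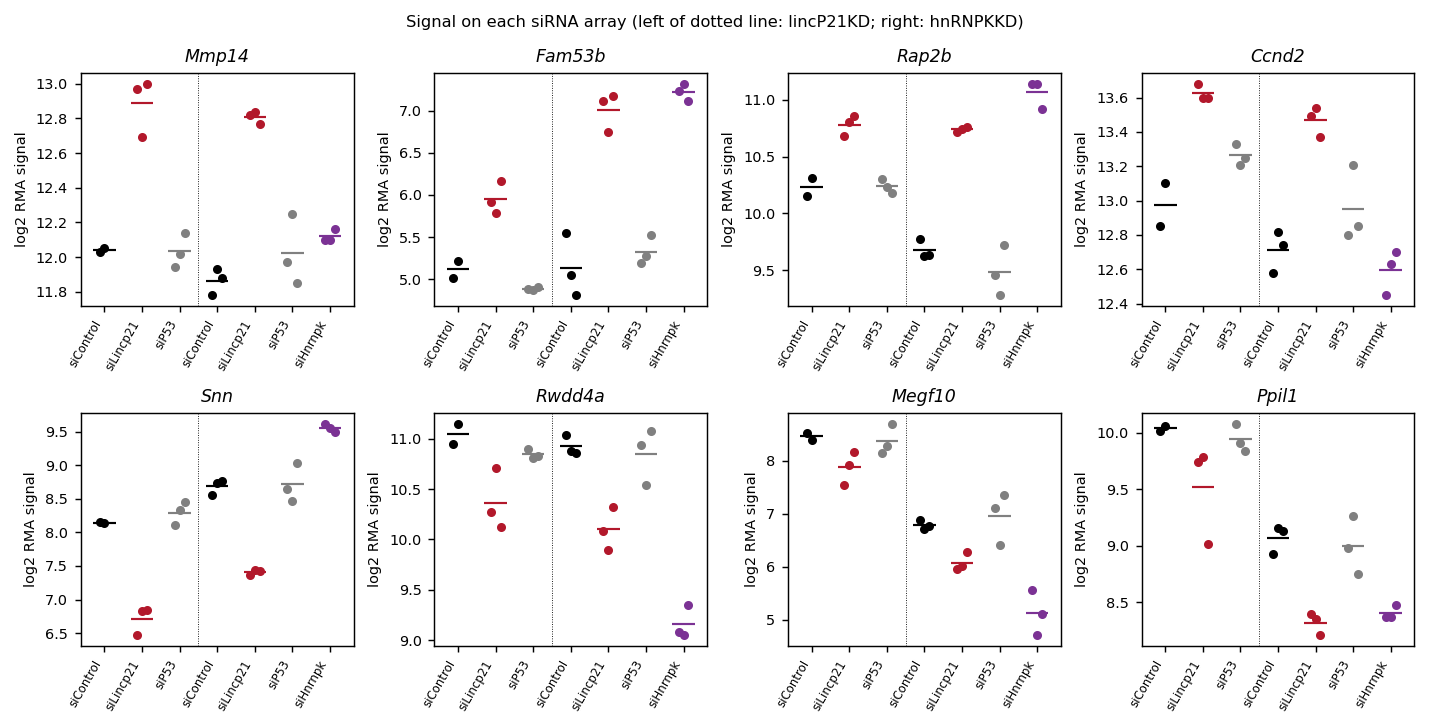
Log2 signal on each siRNA array for 4 genes higher (top) and 4 lower (bottom) with siLincp21, 1 point per array with horizontal lines at the group means, with the lincP21KD experiment left of each dotted line and hnRNPKKD right of it. Rap2b lies between 10.92 and 11.14 with siHnrnpk, Snn at 9.5 or more, and Rwdd4a at 9.35 or less.

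Turning to the lower genes, 11 of the 37 act in transcription, RNA processing or translation, and siHnrnpk lowered 8 of them and raised 1. Roles were assigned once the members were known, and 12.8% of all tested genes were called lower and 14.1% higher. Aff4, the scaffold of the super elongation complex, read 9.85, 10.14 and 9.98 with siLincp21 against 10.72 and 10.61 in lincP21KD, and 7.89, 7.98 and 8.13 against 9.77, 9.61 and 9.77 in hnRNPKKD. With siHnrnpk it read 8.67, 8.55 and 8.99. No siRNA array of these overlaps its controls, and the siHnrnpk difference was -0.98 ± 0.13 (limma, adjusted p = 0.000139). Rrp1b, a nucleolar protein, differed by -0.81 and -1.37 with siLincp21 and by -0.83 ± 0.12 with siHnrnpk (limma, adjusted p = 0.000347). Cfdp1, a chromatin-associated protein, had the lowest siLincp21 difference of all, -2.12, in the hnRNPKKD experiment. It read 9.19, 9.53 and 8.98 with siLincp21, 11.36, 11.37 and 11.34 with control siRNA and 11.35, 11.37 and 11.36 with siHnrnpk. That siHnrnpk difference was 0.00 ± 0.15. Ptbp2, a splicing regulator related to the polypyrimidine tract-binding protein, read 8.2, 8.08 and 8.24 with siLincp21, 8.32, 8.24 and 8.44 with siHnrnpk and 8.96, 8.78 and 9.07 with control siRNA. Its siHnrnpk difference was -0.61 ± 0.14 (limma, adjusted p = 0.00633).

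Ppil1, a cyclophilin of the spliceosome, is 1 of 15 measured genes listed as neighbours of Cdkn1a, and in the annotation 2 protein-coding genes, Rab44 and Cpne5, lie between them. It read 9.74, 9.79 and 9.02 with siLincp21 against 10.02 and 10.06, and 8.4, 8.35 and 8.21 against 8.93, 9.16 and 9.13. The third lincP21KD array is the lowest by far. Its 3 siHnrnpk arrays read 8.37, 8.37 and 8.48, a difference of -0.67 ± 0.12 (limma, adjusted p = 0.0016). Purb, Myef2, Nr1d2, a clock repressor, and Zfp931 also fell with siHnrnpk, with differences of -0.46 to -0.71. The Zfp931 call was lost without any 1 siHnrnpk array or without control replicate 1 or 3 (adjusted p 0.0714 to 0.123). The calls of Purb and Nr1d2 were lost without siHnrnpk replicate 1 or control replicate 1, Purb also without siHnrnpk replicate 3 or control replicate 2, and Nr1d2 also without siHnrnpk replicate 2 (adjusted p 0.0501 to 0.0781). The Nr1d2 call was lost on the mean of its probe sets too (-0.37, limma, adjusted p = 0.0554). Other probe sets of Purb differed by -0.30 to -1.31 with siHnrnpk, and by 0.04 to -0.48 with siP53 in the same experiment. Prdm4 rose by 0.30, a call lost without any 1 of the arrays compared other than siHnrnpk replicate 3 (adjusted p 0.0512 to 0.116), and Bzw1 did not pass.

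Kinases, adaptors and polarity proteins make up 12 of the lower genes. Megf10, a receptor for the engulfment of dying cells, read 7.55, 7.93 and 8.17 with siLincp21 against 8.53 and 8.39, and 5.95, 6.01 and 6.27 against 6.89, 6.71 and 6.77. With siHnrnpk it read 5.56, 4.71 and 5.11, below every siLincp21 array. The difference was -1.66 ± 0.23 (limma, adjusted p = 0.000221). Pard6b, a core polarity protein, and Numb, an inhibitor of Notch signalling, differed by -1.02 ± 0.18 and -0.78 ± 0.10 with siHnrnpk (limma, adjusted p = 0.000957 and 0.000122). Mapkapk2, a kinase downstream of p38, read 7.35, 7.53 and 7.52 with siLincp21 against 8.29 and 8.24, and 6.68, 6.96 and 6.77 against 8.0, 8.06 and 8.12. The siHnrnpk signal was 7.88, 7.9 and 7.79, a difference of -0.20 that did not pass. Nkiras2, a Ras-like regulator of NF-kB, differed by -0.84 and -1.36 with siLincp21, and it read 9.26, 9.37 and 9.23 with siHnrnpk against 9.08, 9.16 and 9.0. Each siHnrnpk array of Nkiras2 is above each control, but the difference of 0.21 ± 0.10 did not pass (limma, adjusted p = 0.149). Hipk1, a nuclear kinase, differed by -0.80 and -0.92 with siLincp21 and read 8.99, 8.91 and 8.92 with siHnrnpk, inside the control range of 8.86 to 9.07. Gsk3b, Fbxo11 and Ywhag did not pass, Ahcyl1 and Cinp fell by 0.40 and 0.42, and the channel kinase Trpm7 rose by 0.50. The Ahcyl1 call was lost on the mean of its probe sets (-0.36, limma, adjusted p = 0.0674). With the replicate number as a block Ywhag fell (-0.42, adjusted p = 0.0284, limma). The Trpm7 call was lost without siHnrnpk replicate 1 or 3 or control replicate 2 or 3 (adjusted p 0.0638 to 0.131).

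Membrane proteins, traffic and glycosylation account for 5 lower genes. Snn encodes stannin, a small membrane protein. It read 6.47, 6.83 and 6.84 with siLincp21 against 8.15 and 8.14 in lincP21KD, and 7.37, 7.44 and 7.43 against 8.56, 8.74 and 8.77 in hnRNPKKD. With siHnrnpk it read 9.62, 9.55 and 9.5, above every other array. The rise was 0.87 ± 0.13 (limma, adjusted p = 0.000303), and against the siP53 arrays it was 0.84 (adjusted p = 0.00015). Slc45a4, a sugar transporter, differed by -0.78 ± 0.11 with siHnrnpk (limma, adjusted p = 0.000164), and Rab27b, a GTPase of regulated secretion, by -0.65 ± 0.16 (adjusted p = 0.00858). Their siLincp21 differences were -0.96 and -1.42, and -0.89 and -1.46. Ap3m1, a subunit of an adaptor that sorts cargo to lysosomes, and Galnt1, which starts O-linked glycosylation, did not pass with siHnrnpk (-0.09 and -0.03).

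The remaining 9 lower genes are 3 chaperones and 6 genes of other or unclear role. Rwdd4a, an RWD-domain protein, read 10.27, 10.71 and 10.12 with siLincp21 against 10.95 and 11.15, and 10.08, 9.9 and 10.32 against 11.04, 10.88 and 10.86. Values with siHnrnpk were 9.08, 9.05 and 9.35. That difference of -1.77 ± 0.15 (limma, adjusted p = 5.77e-06) was the lowest of the 72 genes. Wdr13 and the unnamed transcript 2810002D19Rik fell by 0.56 and 0.61 with siHnrnpk. None of the chaperones Hsph1, Hspa4l and Ficd passed with siHnrnpk, nor did Zmynd19, A930004D18Rik or Gt(ROSA)26Sor, a noncoding transcript whose locus is a common site for transgenes. On the mean of its probe sets Hspa4l fell (-0.31, limma, adjusted p = 0.00781). With the replicate number as a block, A930004D18Rik rose (0.52, adjusted p = 0.0169, limma) and Gt(ROSA)26Sor fell (-0.56, adjusted p = 0.0254).

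Counted over the whole set, siHnrnpk raised 15 of the 35 higher genes (42.9%), lowered 2 (Camk2n2 and Lin7a) and left 18 uncalled, with a median of 0.26. Of the 37 lower genes it lowered 18 (48.6%), raised 3 (Snn, Trpm7 and Prdm4) and left 16 uncalled, with a median of -0.42. Over all tested genes 14.1% were called higher and 12.8% lower, and the median was 0.00. These comparisons share the 3 control arrays of the hnRNPKKD experiment with the siLincp21 comparison that chose the genes, so a high or low control array moves both the same way. Set against the siP53 arrays, siHnrnpk was higher for 13 and lower for 5 of the 35 (median 0.09), and higher for 2 and lower for 21 of the 37 (median -0.36). The background there was 22.9% and 22.5%, and the rule had held the siP53 means near the controls. Of the 38 calls against the controls, 8 were lost in at least 1 fit without a single array, and Trpm7 and Prdm4 were both lost without siHnrnpk replicate 1, control replicate 2 or control replicate 3. In the plot of siHnrnpk against restoration, Rap2b, Fam53b, Tcn2, Meak7 and Lrp11 stand at the upper right, with Rwdd4a and Megf10 at the far left and Snn among the higher genes.

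**Figure D3:**
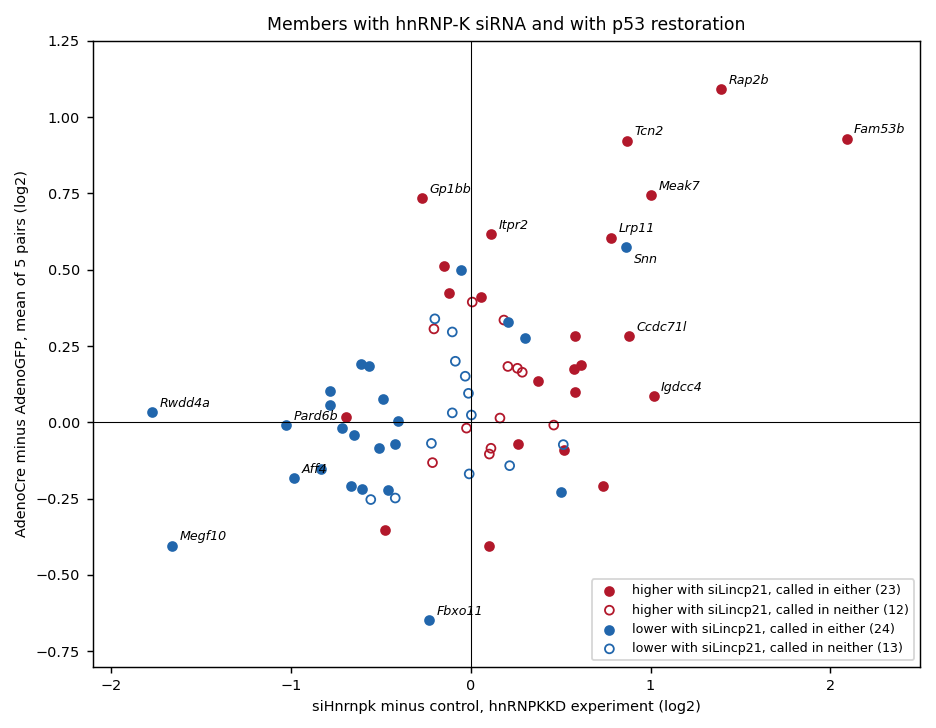
Difference with siHnrnpk (horizontal, log2) against the mean difference of adenoCRE from adenoGFP over 5 times (vertical, log2), 1 point per gene, red for the 35 higher and blue for the 37 lower with siLincp21, filled where either comparison was called. Red points reach 2.09 and 1.09 at the right and top, and blue points reach -1.77 at the left and -0.65 at the bottom.

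The time course shared no array with the comparisons that chose the genes. AdenoCRE raised 10 of the 35 higher genes (28.6%) and lowered 2 (5.71%), with a median of 0.18, against 12.9% and 6.24% of all tested genes and a median of 0.04. Those raised were Rap2b (1.09), Fam53b (0.93), Tcn2 (0.92), Meak7 (0.74), Gp1bb (0.74), Itpr2 (0.62), Lrp11 (0.61), Atp6v0a1 (0.51), Ccnd2 (0.42) and Tbc1d9b (0.41). All 5 pairs were higher for each of the 10. On the mean of all probe sets Itpr2 (0.24, limma, adjusted p = 0.0835) and Tbc1d9b (0.26, adjusted p = 0.0542) were not called, and Ccdc71l (0.34, adjusted p = 0.0182) and Qsox2 (0.39, adjusted p = 0.0489) were. Akna and Lin7a fell by 0.41 and 0.35, and both calls were lost without the 0, 1 or 9 h pair, as was that of Tbc1d9b without the 3 h pair (adjusted p = 0.0675, limma). Of the 37 lower genes, 3 rose (8.11%) and 2 fell (5.41%), shares near the background, and the median was -0.01. Of the higher genes 5, Fam53b, Lrp11, Meak7, Rap2b and Tcn2, rose both with siHnrnpk and with adenoCRE (14.3% of the 35), against 481 of all tested genes (3.8%), a difference that was not tested. Neither siHnrnpk nor adenoCRE gave a call for 12 of the higher genes and 13 of the lower ones. The share of all tested genes without a call in either was not counted, so nothing is read from these numbers.

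Rap2b showed the widest spread over the hours of doxorubicin. Its adenoCRE arrays read 9.19, 9.55, 10.04, 10.17 and 10.18 at 0, 1, 3, 6 and 9 h, and its adenoGFP arrays 8.93, 8.84, 8.8, 8.2 and 8.89. The difference was 0.25 at 0 h and 1.97 at 6 h, with a mean of 1.09 ± 0.21 (limma, adjusted p = 0.0117). Fam53b read 6.01, 6.1, 5.97, 6.68 and 6.81 with adenoCRE and 5.71, 5.19, 5.09, 5.26 and 5.66 with adenoGFP. Tcn2 read 9.49, 10.09, 10.1, 10.42 and 10.45 against 8.97, 9.2, 9.2, 9.29 and 9.29, so the lowest adenoCRE array was above the highest adenoGFP array. The same gap was seen for Ccnd2, whose adenoCRE arrays lay between 13.37 and 13.58 and adenoGFP arrays between 13.0 and 13.12.

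Among the lower genes Snn rose with adenoCRE by 0.58 ± 0.09 (limma, adjusted p = 0.0041). It read 8.59, 8.68, 8.87, 8.73 and 8.79 with adenoCRE and 8.2, 8.16, 8.33, 7.99 and 8.11 with adenoGFP, with no overlap. Ficd, which modifies the chaperone BiP, rose by 0.50 ± 0.09 (limma, adjusted p = 0.00906). Nkiras2 rose by 0.33 (adjusted p = 0.0482, limma), and this call was lost without the 0, 1, 3 or 6 h pair (adjusted p 0.1 to 0.138). Fbxo11, a ubiquitin ligase subunit, fell by 0.65 ± 0.17 (limma, adjusted p = 0.0333), with differences of -1.19, -0.94 and -0.88 at 1, 3 and 6 h but -0.19 and -0.05 at 0 and 9 h. Without the 1, 3 or 6 h pair its adjusted p was 0.0874 to 0.112. Megf10 fell by 0.40 (adjusted p = 0.0489, limma), with the widest gap, -0.93, at 9 h, and the call was lost without any 1 of the 5 pairs (adjusted p 0.0558 to 0.117).

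**Figure D4:**
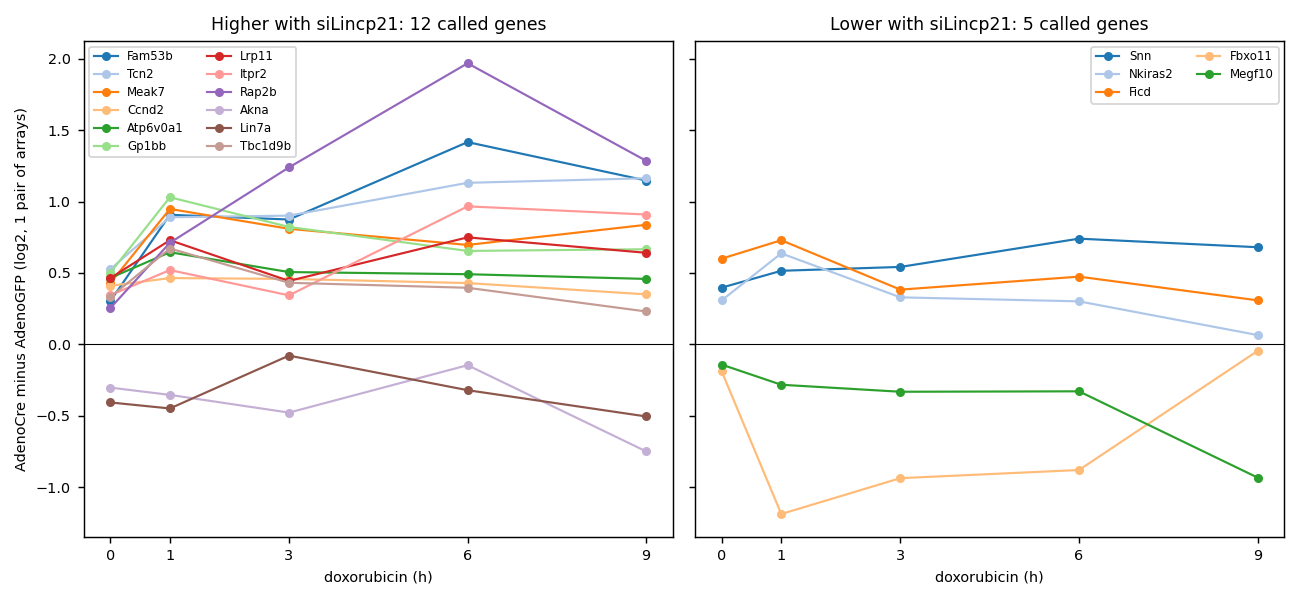
Difference of adenoCRE from adenoGFP (log2, 1 pair of arrays per point) at 0, 1, 3, 6 and 9 h of doxorubicin for the genes called in that comparison, 12 of those higher (left) and 5 of those lower (right) with siLincp21. Rap2b goes from 0.25 at 0 h to 1.97 at 6 h, and Fbxo11 lies between -1.19 and -0.88 from 1 to 6 h.

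With adenoCRE the slope on hours was called for Lpcat3 (0.09 log2 per hour, adjusted p = 0.031, limma) and Bdh1 (0.09, adjusted p = 0.0343) among the higher genes and for Megf10 (-0.13, adjusted p = 0.0158) among the lower ones. The background was 3.95% of tested genes upwards and 1.45% downwards. All 3 calls were lost without the 0, 1, 3 or 9 h pair. With adenoGFP no member passed, although Bdh1 had a larger slope there, 0.15 per hour (limma, adjusted p = 0.1). Unadjusted p lay below 0.05 for 2 higher and 8 lower genes with adenoGFP, or 5.71% and 21.6%, against 13.1% of all tested genes, and limma called 0.00789% of all genes after adjustment. The difference in slope between the viruses was called for 0 members, with 2 higher and 3 lower genes below 0.05 unadjusted (5.71% and 8.11%, against 8.4% of all tested genes).

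The members make up 0.568% of the tested genes, and each list of known genes below held 0 or 1 of them, from which nothing is read. Mmp14 was 1 of 42 measured extracellular matrix genes, Sel1l 1 of 30 genes of the unfolded protein and amino acid response, P4ha2 1 of 28 of hypoxia and glycolysis, Ptbp2 1 of 31 hnRNP and splicing factors and Ppil1 1 of 15 near Cdkn1a. The 42 measured p53-activated targets held 0 members, and the rule leaves out genes that siP53 moved. Of those targets 30 rose and 0 fell with adenoCRE, and 15 rose and 4 fell with siHnrnpk, where all tested genes rose and fell at 12.9% and 6.24% with adenoCRE and at 14.1% and 12.8% with siHnrnpk. Interferon response genes, which transfected RNA can switch on, held 0 members among 34 measured. Their median siP53 differences were 0.807 in lincP21KD and 0.301 in hnRNPKKD, so the rule left many of them out whatever siLincp21 did. With siLincp21 the medians were 0.091 and 0.22. Of the 31 hnRNP and splicing factors, siHnrnpk lowered 11 and raised 2, against the same 12.8% and 14.1%. No 2 of the 69 members placed in the annotation were direct neighbours.

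Many members had further probe sets on the array, and these did not enter the rule. For 20 of the higher genes there were 44 others above the level limit, of which 38 had the same sign in both experiments and 16 also passed 0.5 in both. For 24 of the lower genes there were 50 others, of which 47 had the same sign and 21 passed. Another probe set of Mmp14 gave siLincp21 differences of 1.05 and 0.89 and siP53 differences of 0.08 and -0.58, and both others of Ywhag gave -0.57 to -1.93. In 9 higher and 10 lower genes another probe set had a siP53 difference of at least 0.3 in size in 1 or both experiments. Among them were Bbx, Ccnd2, Fam53b, Mmp14, Rap2b and Ywhag. For Ywhag these were -1.07 and -0.58 in the hnRNPKKD experiment. The siP53 difference of these genes thus varied with the probe set.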

How the data were processed

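The study held 30 Affymetrix arrays. The authors deposited log2 RMA signal, per the submitters' processing notes, which give no RMA version. Medians differ between the 3 experiments, so levels were compared only within one. Of 45101 probe sets, 34958 carried a single gene symbol. Each gene took its probe set with the highest mean, and those under the 40th percentile (4.544) were left out. Limma 3.58.1 (R 4.3.3) was used for every fit, with the 12 hnRNPKKD arrays in 1 fit and the time course with hours as a block. A gene was called at a Benjamini-Hochberg adjusted p below 0.05 over 12674 genes, and with siHnrnpk and adenoCRE "rose", "fell", "raised" or "lowered" mark called genes. The precision rests on the number of arrays.

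Members, gene lists and tests were chosen with earlier results of these data known, and roles were assigned once the members were known. Named by rule were the 12 members of each direction with the largest smaller siLincp21 difference, the 5 largest called with siHnrnpk and with adenoCRE, list members and those beside the limits. The rule passes over Gm numbers, Rik clones, LOC names and accession-like names, AU040320 among them. Others are named where a count is spelled out, after their values were seen. Same-numbered siHnrnpk and control arrays deviated together (correlations 0.216, 0.166 and 0.209). Their numbers were taken as pairs, on the data alone, only where a replicate block is named, and the main fit had none. With siLincp21 arrays the siHnrnpk correlations were 0.011, 0.204 and 0.044, and with siP53 arrays 0.218, 0.189 and -0.031. On simulated data of 12674 genes, 67, 67 and 66 genes were changed by 0.5, 1 and 2 (log2). They were recovered at 29.9%, 92.5% and 100% for siHnrnpk, and at 41.8%, 83.6% and 98.5% for adenoCRE. Many more genes were called in the data (14.1% higher and 12.8% lower with siHnrnpk), which loosens the adjusted threshold. The simulated shares therefore do not describe the real fits. Alternatives covered scaling, probe sets, filters, limits, left-out arrays and the block. Promoter windows came from a RefSeq table (GRCm38.p6).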

Additional observations from a re-analysis of the deposited data

How the results depend on the processing

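The choice of limits moved the set most. A siLincp21 limit of 0.4 gave 82 higher and 87 lower genes and one of 0.6 gave 14 and 20, a siP53 limit of 0.2 gave 18 and 22, and the mean of all probe sets gave 21 higher genes. Leaving out 1 array at a time gave 25 to 49 higher and 30 to 53 lower genes, and 7 of the 35 and 15 of the 37 stayed in the set in all 17 such fits. With siHnrnpk, the higher genes called lower numbered 1 with quantile scaling, arrays centred on their medians, no filter or a 60th percentile filter and 5 against the siP53 arrays, and the lower genes called higher numbered 6 with array weights, a fit whose weights did not fully converge. With adenoCRE, the higher genes called lower numbered 1 with the mean of all probe sets or array weights and 0 with the 60th percentile filter or no time block. The lower genes called higher numbered 5 with the 60th percentile filter and 6 with array weights, and those called lower numbered 1 with centred arrays, no filter or no time block. Snn was not called with adenoCRE on the mean of its probe sets (0.23, adjusted p = 0.0892, limma), where the second probe set lies below the level limit. Quantile scaling gave 1 higher slope with adenoGFP in place of 0. The cause of these differences was not tested.

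Without 1 array, siHnrnpk called 13 to 15 higher and 1 to 2 lower of the 35, and 1 to 3 higher and 15 to 18 lower of the 37. Without 1 pair, adenoCRE called 9 to 12 higher and 0 to 1 lower of the 35, and 2 to 3 higher and 0 to 2 lower of the 37, and the slope calls with adenoCRE were 0 to 1 in each direction. With the replicate number as a block, siHnrnpk called 15 higher and 2 lower of the 35, and 4 higher and 20 lower of the 37. The replicate block changed the calls of Ywhag (-0.42, adjusted p = 0.0284, limma), A930004D18Rik and Gt(ROSA)26Sor and of no other of the 78 genes followed. Over these genes and all settings, 1114 of 1238 siHnrnpk values and 902 of 1004 adenoCRE values kept their direction and side of the threshold. In 54 and 34 a call was lost and in 33 and 21 one was gained. A value called in neither fit changed sign in 36 and 47. Tbc1d9b, at 0.06 with siHnrnpk, was -0.22 and called on the mean of its probe sets (adjusted p = 0.0454, limma). Changes of 0.5 were often missed in the simulation, where far fewer genes changed than were called in the data.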
